A study of Mus musculus with 10 samples.

Results

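The genes described here are the mouse TRIM (tripartite motif) family, taken as every gene of the deposited table whose symbol is Trim followed by a number and at most 1 letter and whose listed transcript types include protein_coding. That gave 68 members among 55401 genes in the table, of which 31 list protein_coding as their sole transcript type and 37 list further types. RNA sequencing of cerebral cortex covered 10 libraries, each from its own mouse: 5 after traumatic brain injury (TBI) and 5 without it. Mice without injury are named Sham in the titles and naive in the series design, so whether they had surgery is not settled. Strain, age, injury model and time after injury are not given in the sources used here. Totals ran from 47641137 to 70464084 estimated counts per library in TBI and from 59396065 to 71272644 in Sham. Levels are FPKM, read fragments scaled by transcript length and library size, as the authors deposited them, and ± is the SD of the 5 libraries of a group. A gene was tested when its FPKM reached 0.5 in at least 5 of the 10 libraries, and a change was called at an edgeR adjusted p under 0.05 over all 16316 tested genes.

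TRIM proteins carry a RING domain, B-box zinc fingers and a coiled coil, and most act as ubiquitin ligases, enzymes that attach ubiquitin to other proteins. Some are induced by interferon and act in antiviral defence and innate immune signalling. Others work in neurons on axons, synapses and microtubules, and the TIF1 group binds chromatin in the nucleus. In bulk tissue the values do not show which cells a transcript came from.

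Injured cortex had higher levels of 4 members, all of the immune and antiviral group, and a lower level of 1 member of the chromatin group, while the neuronal members showed no called change. Trim30d, Trim30a and Trim34a, which lie side by side or close together on chromosome 7, rose 3.69-fold, 3.49-fold and 2.49-fold, and Trim25 rose 1.59-fold. Trim66 fell, 1.89-fold lower in TBI. Of 36 members tested, 11.1% were called higher and 2.78% lower, against 3.57% and 0.472% of all tested genes. Of the remaining 32 members, 26 had counts below the expression filter and 6 had 0 counts in every library. In a fit without a filter, 5 of 62 members with any count were higher and 1 was lower, or 8.06% and 1.61%, against 1.74% and 0.131% of all 32852 genes in that fit. The median log2 change of the tested members was 0.03, against -0.01 for all tested genes.

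**Figure D1:**
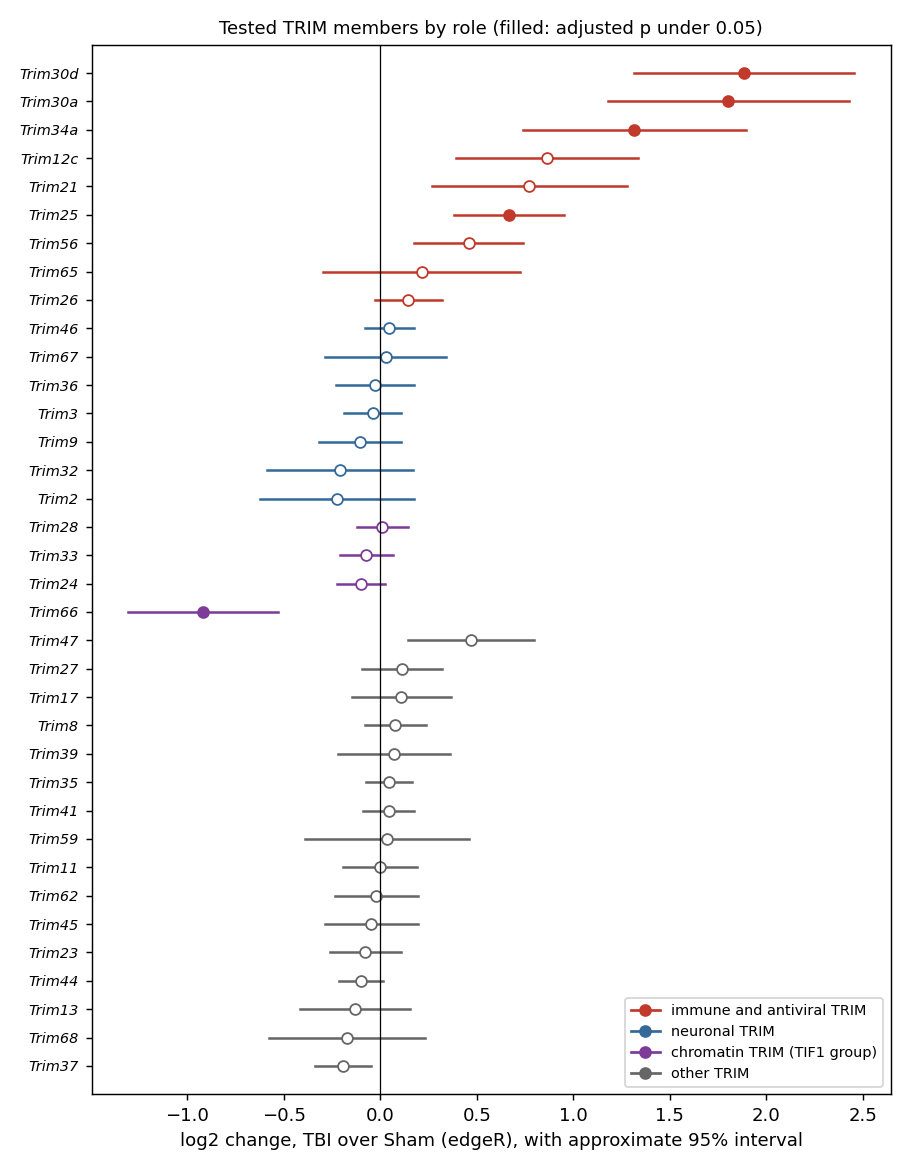
log2 change of each of the 36 tested TRIM members, TBI over Sham, with approximate 95% intervals, grouped by role and coloured as in the legend. Filled points passed an adjusted p under 0.05: Trim30d, Trim30a, Trim34a and Trim25 lie right of 0 and Trim66 left of it, while all 7 neuronal members have intervals that include 0.

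The immune and antiviral group was a list of 18 genes, and 9 of them passed the expression filter. Of those 9, 4 rose, against 3.57% of all tested genes. In the 9, 0 fell and 5 did not pass, with a median log2 change of 0.77. Their summed level over all 18 genes ran from 11.4 to 18.0 FPKM in TBI and from 8.53 to 9.72 FPKM in Sham, with no overlap. Trim30d reached the filter through the TBI libraries alone, and Trim30a, Trim12c and Trim21 reached 0.5 FPKM in 2, 1 and 1 Sham libraries, so the place of these 4 among the tested genes depended on their TBI levels.

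Trim30a (ENSMUSG00000030921, mm10 chromosome 7, 104409025 to 104465193, minus strand) encodes an interferon-inducible protein known in mouse as a feedback regulator of Toll-like receptor signalling. It was at 2.81, 1.58, 2.08, 0.823 and 1.62 FPKM in TBI replicates 1 to 5, against 0.477, 0.614, 0.495, 0.372 and 0.515 FPKM in Sham replicates 1 to 5. Every TBI library lay above every Sham library, with TBI replicate 4 nearest to the Sham range. The log2 change was 1.80 (approximate SE 0.28, edgeR adjusted p = 0.0042).

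Trim30d (ENSMUSG00000057596, chromosome 7, 104470014 to 104507849, minus strand) is the neighbouring paralogue. It was at 0.740, 0.988, 1.37, 0.709 and 0.809 FPKM in TBI, against 0.252, 0.248, 0.263, 0.127 and 0.317 FPKM in Sham. Again the groups did not overlap, and here TBI replicate 3 was the highest library. The log2 change was 1.88 (approximate SE 0.26, adjusted p = 0.0019), the largest of the 36 tested members. Counts behind it were 1227 in TBI and 335 in Sham over 5 libraries each. Of all windows of 75 bases in Trim30a transcripts, 4.98% also occur in Trim30d transcripts, so a small part of the reads of this pair could be assigned to either.

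Trim34a (ENSMUSG00000056144, chromosome 7, 104244457 to 104262234, plus strand), an interferon-responsive member of the same cluster, was at 2.67, 1.57, 2.03, 0.890 and 1.44 FPKM in TBI. Its Sham values were 0.555, 0.815, 0.561, 0.744 and 0.687 FPKM. All TBI values exceeded all Sham values, TBI replicate 4 by a small margin. The log2 change was 1.32 (approximate SE 0.26, adjusted p = 0.016). With replicate number added to the edgeR model Trim34a was not called (log2 1.24, adjusted p = 0.11). Trim34a shares 29.5% of its windows of 75 bases with its copy Trim34b, which averaged 0.164 ± 0.0614 FPKM in TBI and 0.0784 ± 0.0414 FPKM in Sham, so the split of reads between these copies is uncertain.

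Trim25 (ENSMUSG00000000275, chromosome 11, 88999376 to 89020293, plus strand) encodes a ligase that ubiquitinates the RNA sensor RIG-I. Its level was 2.01, 1.97, 2.17, 1.45 and 1.66 FPKM in TBI, against 1.14, 1.03, 1.06, 1.06 and 1.39 FPKM in Sham. The lowest TBI library, replicate 4, was just above the highest Sham library, replicate 5. The log2 change was 0.67 (approximate SE 0.13, adjusted p = 0.014). With replicate number added to the edgeR model Trim25 was not called (log2 0.66, adjusted p = 0.069). Among all tested genes 5.6% had TBI values wholly above Sham values and 0.729% wholly below, while these 4 members and Trim66 were the ones without overlap among the 36.

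**Figure D2:**
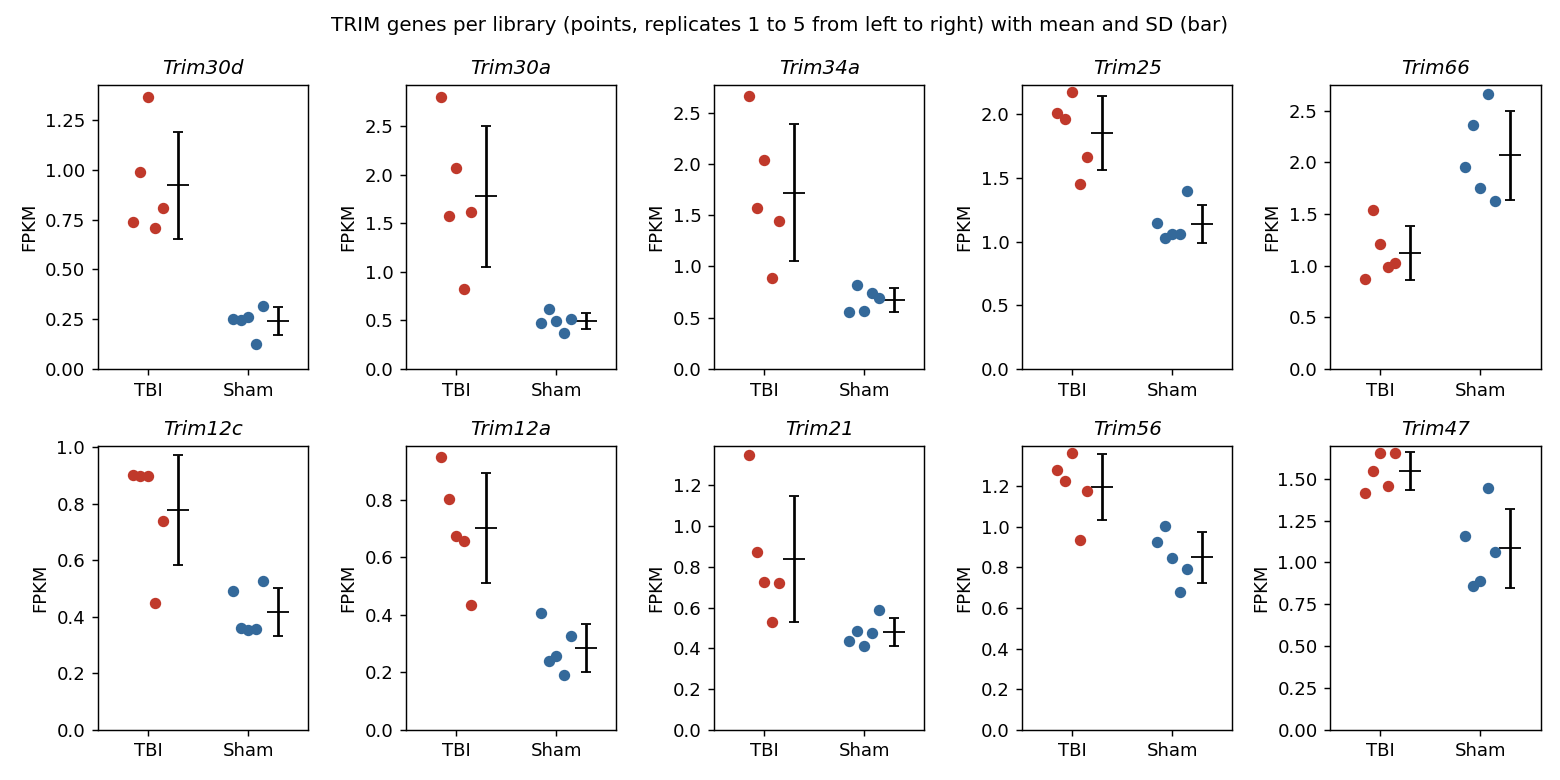
FPKM of 10 TRIM genes in each library, TBI in red left of Sham in blue, with the mean and SD of 5 libraries as a black bar. In the upper row all TBI values lie above all Sham values for Trim30d, Trim30a, Trim34a and Trim25 and below them for Trim66, while in the lower row the groups overlap for Trim12c, Trim21, Trim56 and Trim47.

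Trim12c, Trim21 and Trim56 were higher on average in TBI but did not pass. Trim12c, a mouse relative of the primate retrovirus restriction factor TRIM5, averaged 0.778 ± 0.196 FPKM in TBI and 0.417 ± 0.0849 FPKM in Sham (log2 0.86, adjusted p = 0.051). Its TBI values were 0.903, 0.897, 0.898, 0.450 and 0.740 FPKM, so TBI replicate 4 alone lay within the Sham range of 0.351 to 0.526 FPKM. Trim21, a cytosolic antibody receptor, averaged 0.840 ± 0.310 FPKM in TBI and 0.479 ± 0.0679 FPKM in Sham (log2 0.77, adjusted p = 0.11). Trim56, a ligase of cytosolic nucleic acid sensing, averaged 1.20 ± 0.163 FPKM in TBI and 0.849 ± 0.125 FPKM in Sham (log2 0.46, adjusted p = 0.089). For Trim21 and Trim56 too the lowest TBI value was that of replicate 4, inside the Sham range. Without TBI replicate 4 all 3 were called and 7 members were higher (adjusted p = 0.0055 for Trim12c, 0.036 for Trim21 and 0.022 for Trim56). With counts divided by 4 Trim12c was called by edgeR too (adjusted p = 0.042), and 5 members were higher. Over all alternatives the adjusted p ran from 0.0043 to 0.13 for Trim12c, from 0.027 to 0.22 for Trim21 and from 0.022 to 0.20 for Trim56. DESeq2 called 8 members higher, the 4 above with Trim12c, Trim21, Trim56 and Trim47. It called 837 of all tested genes higher, against 582 by edgeR.

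Trim26, a ligase gene of the chromosome 17 histocompatibility region, averaged 3.72 ± 0.220 FPKM in TBI and 3.28 ± 0.297 FPKM in Sham and did not pass (log2 0.14, adjusted p = 0.44). Trim65, which acts on the RNA sensor MDA5, averaged 0.874 ± 0.269 FPKM in TBI and 0.734 ± 0.188 FPKM in Sham (log2 0.21, adjusted p = 0.75). Among TBI libraries Trim65 was lowest in replicate 1 and Trim26 in replicate 2. The other 9 genes of the immune list lay below the filter. Of these Trim12a, a further TRIM5 relative, was at 0.951, 0.802, 0.675, 0.657 and 0.433 FPKM in TBI, against 0.407, 0.239, 0.258, 0.189 and 0.326 FPKM in Sham. Its groups did not overlap, and it was called in the fit without a filter (log2 1.26, approximate SE 0.24, adjusted p = 0.020). Trim5, Trim6, Trim14, Trim30b, Trim30c, Trim31, Trim34b and Trim38 were not called in that fit, and their group means were all at or below 0.277 FPKM. Trim31, an inflammasome-linked member, had 4 counts in all, about 1 fragment, in TBI replicate 5.

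Of the 4 called immune members, 3 lie in a cluster of 10 TRIM genes on chromosome 7. It runs from 104218793 to 104507849, a span of 289 kb that holds 18 genes of the table. In genomic order the 10 are Trim6, Trim34a, Trim5, Trim12a, Trim34b, Trim12c, Trim30b, Trim30c, Trim30a and Trim30d. Of the 10, 3 were called higher among the 4 tested, and 4 were called higher without a filter. Of all genes in those fits, 3.57% and 1.74% were called higher. Among the 4 tested, Trim30d, Trim12c and Trim30a reached 0.5 FPKM in 0, 1 and 2 Sham libraries. Their place there depended on their TBI levels. The median log2 change of all genes in the fit without a filter was -0.0028. In the fit without a filter 9 of the 10 had a log2 change above 0, and Trim6 was at -0.52 with levels of Trim6 at 0.0343 ± 0.00972 FPKM in TBI and 0.0486 ± 0.0219 FPKM in Sham. Trim30b and Trim30c had fitted log2 changes of 2.31 and 1.44 but rest on 106 and 28 counts in TBI, against 23 and 12 counts in Sham, and did not pass. Trim5 and Trim12c share 12.4% of the Trim5 windows of 75 bases, so their reads can be exchanged in part. Elsewhere on chromosome 7, Trim3, Trim21, Trim28 and Trim68 were tested and not called, Trim72 lay below the filter, and Trim66, the member that fell, lies 5205 kb from the start of Trim34a.

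**Figure D3:**
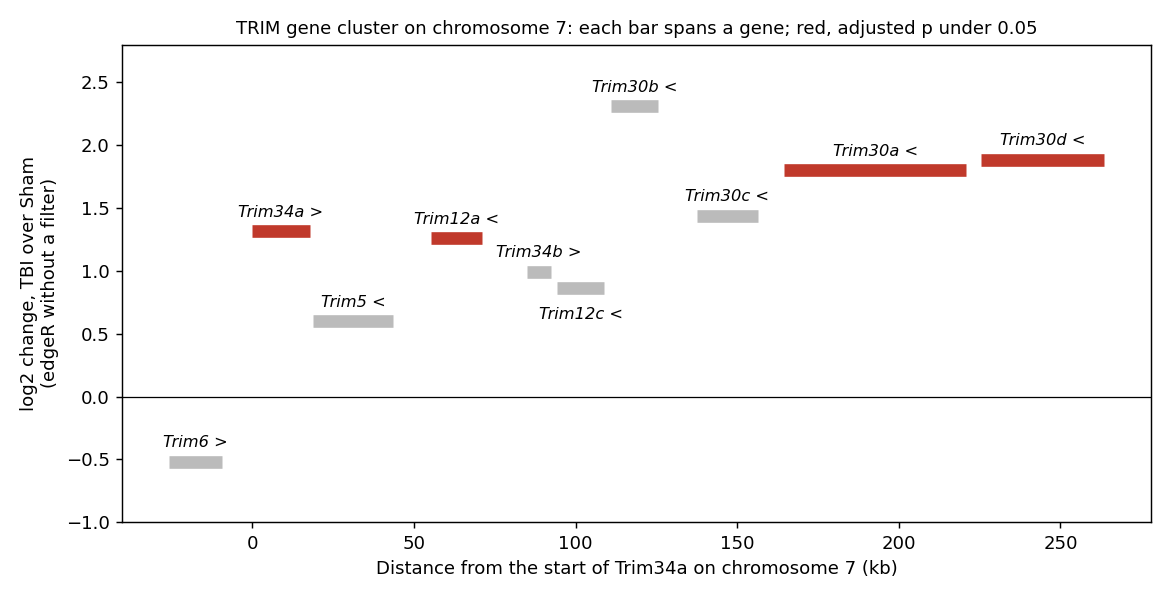
The TRIM cluster on chromosome 7, with each bar spanning a gene at its distance in kb from the start of Trim34a and its height giving the log2 change in TBI over Sham without an expression filter; arrowheads give the strand. Red bars, Trim34a, Trim12a, Trim30a and Trim30d, had an adjusted p under 0.05, and Trim6 at the left end is the bar below 0.

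Promoter windows of 4 cluster genes, and of Trim21 from elsewhere on the chromosome, are shown because they are the tested immune members of chromosome 7 and the interferon-stimulated response element is the DNA site through which interferon signalling acts on many antiviral genes. RefSeq windows (build GRCm38.p6) from 250 bases before to 50 bases after a transcript start were found for 53 of the 68 members, 67 windows in all. They were searched on both strands for the core of that element, GAAA followed by any 2 bases and a second GAAA. In the windows below, written 5′ to 3′ on the gene's strand, capitals mark each match, which reads as TTTC, any 2 bases and TTTC where it lies on the opposite strand.
Trim30a, chr7:104465144-104465443, minus strand: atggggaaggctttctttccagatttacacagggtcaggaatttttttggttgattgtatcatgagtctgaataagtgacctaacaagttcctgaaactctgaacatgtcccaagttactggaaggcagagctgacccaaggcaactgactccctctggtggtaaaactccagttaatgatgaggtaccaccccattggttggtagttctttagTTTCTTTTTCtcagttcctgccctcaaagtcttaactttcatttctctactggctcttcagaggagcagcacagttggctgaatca
Trim30d, chr7:104507800-104508099, minus strand: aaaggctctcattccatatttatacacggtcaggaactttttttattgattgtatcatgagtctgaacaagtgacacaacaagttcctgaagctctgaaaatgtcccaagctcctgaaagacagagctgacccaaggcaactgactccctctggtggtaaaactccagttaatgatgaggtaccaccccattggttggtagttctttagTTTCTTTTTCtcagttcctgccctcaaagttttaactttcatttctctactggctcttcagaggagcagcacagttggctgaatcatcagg
Trim34a, chr7:104244207-104244506, plus strand: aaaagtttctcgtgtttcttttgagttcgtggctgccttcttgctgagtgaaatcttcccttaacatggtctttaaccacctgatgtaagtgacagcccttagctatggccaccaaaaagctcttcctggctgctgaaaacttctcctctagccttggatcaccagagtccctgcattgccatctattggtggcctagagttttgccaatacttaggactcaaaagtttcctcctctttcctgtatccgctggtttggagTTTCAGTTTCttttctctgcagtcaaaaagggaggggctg
Trim12c, chr7:104353300-104353599, minus strand: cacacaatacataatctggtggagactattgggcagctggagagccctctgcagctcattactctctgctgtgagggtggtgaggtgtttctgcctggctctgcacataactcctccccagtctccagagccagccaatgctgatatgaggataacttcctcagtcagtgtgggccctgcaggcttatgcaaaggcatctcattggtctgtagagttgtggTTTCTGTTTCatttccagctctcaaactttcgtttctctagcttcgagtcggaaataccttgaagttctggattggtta
Trim21, chr7:102565433-102565732, minus strand: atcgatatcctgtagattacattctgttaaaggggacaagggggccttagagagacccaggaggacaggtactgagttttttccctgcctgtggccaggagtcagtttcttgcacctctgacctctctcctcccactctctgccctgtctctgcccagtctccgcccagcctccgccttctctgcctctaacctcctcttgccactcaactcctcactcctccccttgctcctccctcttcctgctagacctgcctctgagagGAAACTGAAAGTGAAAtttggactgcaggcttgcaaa

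A match to the core was present in 10 of the 67 member windows, and in 3.44% of all 32851 windows of the same length. The 10 windows belong to 9 members, namely Trim2, Trim5, Trim12a, Trim12c, Trim21, Trim26, Trim30a, Trim30d and Trim34a. Of the 4 members that rose, Trim30a, Trim30d and Trim34a held the letters and Trim25 did not, nor did Trim66. The matches printed for Trim30a and Trim30d begin 36 and 41 bases before the start and lie in windows that share an unbroken run of 118 bases, so they are not independent. A second Trim30a window, chr7:104446076-104446375, holds a match at base 3 after its start. Trim12a and Trim5 likewise share a run of 241 bases, and Trim12c shares a run of 71 bases with each of them. The matches of Trim5, Trim12a and Trim12c are therefore not independent either. The match of Trim34a begins at base 11 after the start, and Trim21 holds a pair of overlapping matches there, at bases 14 and 20. Of the 9 members with a match, Trim2, Trim5, Trim12c, Trim21 and Trim26 were not called in either fit, and Trim12a was called in the fit without a filter alone. The shorter core TTCNNNGAA of the gamma-activated site was found in 7 of the 67 member windows, from 6 members, and in 8.3% of all windows. Of the 6, Trim45 and Trim46 were tested and not called. Trim15, Trim30c, Trim31 and Trim38 lay below the expression filter and were not called without it. These matches describe the letters only.

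Other genes of the interferon pathway were higher in the same libraries. Of 16 interferon-stimulated genes 10 were tested, 8 rose, 0 fell and 2 did not pass (median log2 change 1.83). Beside this and the next lists stands the share of all tested genes called, 3.57% higher and 0.472% lower. Bst2, which tethers budding virus particles, averaged 11.8 ± 4.53 FPKM in TBI and 2.37 ± 0.489 FPKM in Sham (log2 2.27, adjusted p = 0.000878). Oas1a, an activator of RNA cleavage, Usp18, which removes ISG15 from proteins, and Ifit1, which binds foreign RNA, had log2 changes of 2.24, 2.02 and 1.93. Of 14 interferon regulators 6 rose and 0 fell (median 0.40), among them Irf7 at log2 2.04, Irf8 at 1.75 and Irf5 at 1.02. Of 14 symbols listed for nucleic acid sensing 11 were found, 8 were tested and 3 rose, namely Tlr7 at log2 1.53, Sting1 at 1.13 and Ddx58 at 1.23. Ddx58, which encodes the Trim25 target RIG-I, averaged 1.44 ± 0.487 FPKM in TBI and 0.595 ± 0.0618 FPKM in Sham. Among 10 ubiquitin-conjugating enzymes, the partners that pass ubiquitin to ligases, edgeR called 0 and DESeq2 called 1. In that list 2 had an unadjusted p under 0.05, as did 2445 of all 16316 tested genes. Of these enzymes Ube2l6, the enzyme for the ubiquitin-like protein ISG15, was at 2.59 ± 0.778 FPKM in TBI and 1.58 ± 0.235 FPKM in Sham (adjusted p = 0.11).

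Within the TBI group the immune members differed between libraries, in part in the same order as the interferon-stimulated genes and the microglia markers. TBI replicate 4 was the lowest TBI library for 7 of the 9 tested immune members, and TBI replicates 1 and 3 were the highest for 4 and 3 of them. How often replicate 4 was lowest over all tested genes was not counted. It was also lowest for the interferon, microglia, monocyte and astrocyte sums below, so this is not particular to TRIM genes. Among the 7, Trim30d, Trim30a, Trim12c and Trim21 owed their place among the tested genes to their TBI levels. Relative to the Sham mean, Trim30a was at 5.67, 3.19, 4.20, 1.66 and 3.27 in TBI replicates 1 to 5. The summed interferon-stimulated genes were at 5.6, 3.06, 4.04, 2.05 and 2.81 on the same scale. Summed microglia markers, relative to Sham, were at 4.07, 2.62, 3.24, 2.14 and 2.83, also with replicate 1 highest and replicate 4 lowest. Monocyte and macrophage markers, at 15.5, 6.84, 12.1, 4.16 and 12.5, had the same highest and lowest libraries, and astrocyte markers were lowest in replicate 4 and highest in replicate 2. Trim30d, Trim25 and Trim56 did not follow that order, being highest in replicate 3, with Trim30d at 5.66 there and at 3.06 in replicate 1. Trim26 was highest in replicate 5 and lowest in replicate 2, and Trim65 highest in replicate 2 and lowest in replicate 1.

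**Figure D4:**
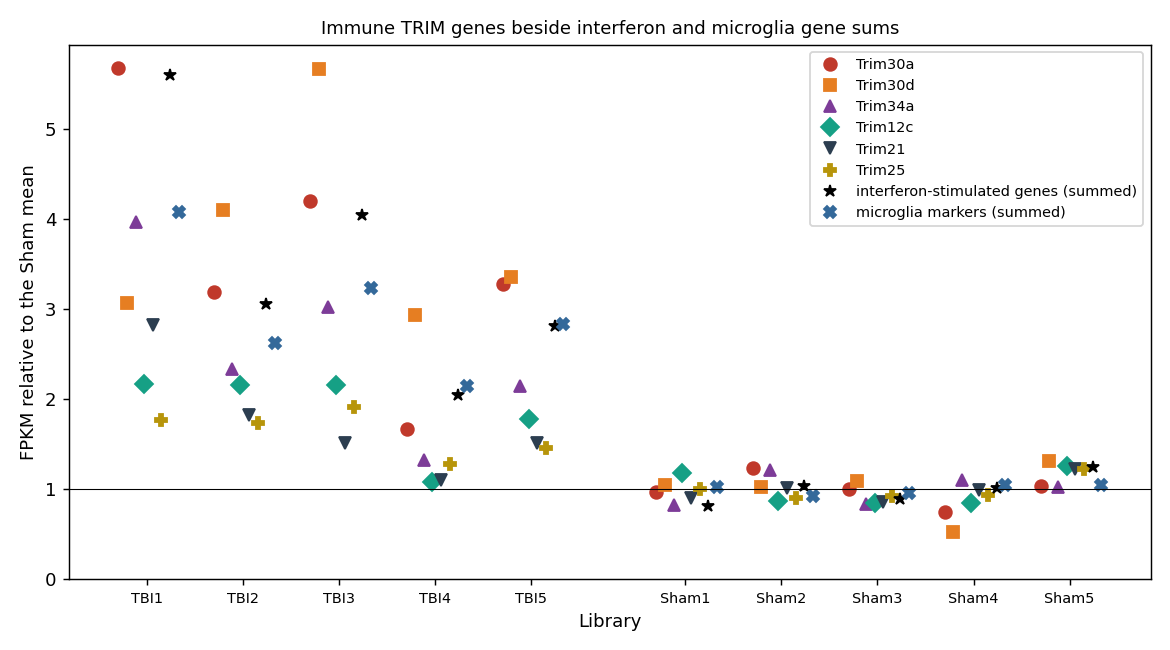
FPKM of 6 immune TRIM genes and the summed FPKM of interferon-stimulated genes and microglia markers in each library, divided by the Sham mean of the same gene or sum. Of the series plotted, each has its lowest TBI value in replicate 4, from 1.08 for Trim12c to 2.94 for Trim30d, and Trim30a tops out at 5.67 in TBI replicate 1; Trim26 and Trim65, lowest in TBI replicates 2 and 1, are not plotted.

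Microglia markers rose in 11 of 12 genes, with a summed level of 407.8 to 775.2 FPKM in TBI and 175.4 to 199.5 FPKM in Sham, and P2ry12 was the member that did not pass. For comparison with this and the next lists, 3.57% of all tested genes were called higher and 0.472% lower. Monocyte and macrophage markers summed to 28.6 to 106.5 FPKM in TBI and 6.33 to 7.54 FPKM in Sham, with 1 of 3 tested members called. That member, the lysozyme gene Lyz2, averaged 67.3 ± 31.7 FPKM in TBI and 5.02 ± 0.621 FPKM in Sham and carried most of the sum, and the median log2 change of the 3 was 0.58. Astrocyte markers rose in 2 of 6 and summed to 536.4 to 676.3 FPKM in TBI and 299.7 to 351.3 FPKM in Sham, with a median log2 change of 0.25. The reactive astrocyte marker Gfap averaged 259.7 ± 67.4 FPKM in TBI and 38.3 ± 6.0 FPKM in Sham. Lymphocyte markers had 0 called of 1 tested and summed to 1.32 to 5.50 FPKM in TBI and 1.34 to 7.31 FPKM in Sham, and the T cell marker Cd3e averaged 0.0121 FPKM in TBI and was at 0 counts in all Sham libraries. Of the neutrophil markers Ly6g and Cxcr2 were at 0 counts in all libraries, the list summed to 4.03 to 7.89 FPKM in TBI and 1.53 to 1.79 FPKM in Sham, and its 1 tested member, Csf3r, rose. The part of these cells in the rise of the TRIM genes was not tested, and more cells of a type and more RNA per cell cannot be told apart in bulk tissue.

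The neuronal members were expressed in every library, and edgeR, DESeq2 and limma on log2(FPKM + 1) each called 0. All 7 were tested and 0 had an unadjusted p under 0.05, with a median log2 change of -0.04 and a range of -0.22 to 0.05. Of all 16316 tested genes, 3.57% were called higher, 0.472% lower, and 2445 had an unadjusted p under 0.05. At such shares, 0 calls among 7 genes do not set this group apart. Trim3, a ligase of the postsynaptic density, averaged 22.5 ± 1.84 FPKM in TBI and 22.4 ± 1.41 FPKM in Sham (log2 -0.04, 95% interval -0.19 to 0.11). Trim46, which organises parallel microtubules in the axon initial segment, averaged 18.3 ± 1.54 FPKM in TBI and 17.2 ± 0.244 FPKM in Sham (log2 0.05, interval -0.08 to 0.17). For Trim9, a regulator of netrin-guided axon branching, the averages were 16.2 ± 2.36 FPKM in TBI and 16.9 ± 1.39 FPKM in Sham (interval -0.32 to 0.11). Its close relative Trim67 was low, at 0.589 ± 0.0924 FPKM in TBI and 0.564 ± 0.0844 FPKM in Sham. Trim36, a microtubule-associated member, was at 1.08 ± 0.0154 FPKM in TBI and 1.08 ± 0.112 FPKM in Sham.

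Trim2 and Trim32 had the lowest log2 changes of the neuronal members, and neither passed. Trim2, a ligase for the neurofilament light chain, was at 5.73, 7.10, 5.52, 10.9 and 9.30 FPKM in TBI, against 9.16, 9.74, 7.01, 8.58 and 9.37 FPKM in Sham. The lowest and the highest library were both TBI, and the interval of the log2 change ran from -0.62 to 0.17. Trim32, a ligase of neural progenitor and muscle cells, was at 36.6, 31.4, 46.6, 52.7 and 31.5 FPKM in TBI, against 31.3, 49.3, 48.3, 46.0 and 48.4 FPKM in Sham. Its values lay on a lower level near 31 to 37 FPKM in 3 TBI libraries and 1 Sham library and on a higher one from 46.0 FPKM up in the other 6, in both groups, and the log2 change was -0.21 (interval -0.58 to 0.17). Trim32 overlaps Astn2, a neuronal gene on the opposite strand, over 11253 bases. Astn2 averaged 8.15 ± 0.443 FPKM in TBI and 9.13 ± 1.10 FPKM in Sham, and whether the counting used strand is not stated. Neuron markers were called lower in 1 of 10 genes, against 0.472% of all tested genes. Their sum ran from 1066.4 to 1216.1 FPKM in TBI and from 1197.8 to 1328.8 FPKM in Sham.

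In the chromatin group 1 of 4 members fell and 3 did not pass, against 0.472% of all tested genes called lower. Trim66 (ENSMUSG00000031026, chromosome 7, 109449006 to 109508134, minus strand) encodes a nuclear protein with a PHD finger and a bromodomain that reads histone marks. It was at 0.869, 1.54, 1.21, 0.985 and 1.02 FPKM in TBI, against 1.95, 2.36, 1.75, 2.66 and 1.63 FPKM in Sham. Every TBI library lay below every Sham library, with TBI replicate 2 and Sham replicate 5 closest. The log2 change was -0.92 (approximate SE 0.18, adjusted p = 0.013), resting on 4005 counts in TBI and 7562 in Sham. Trim28, the KAP1 corepressor recruited by zinc finger proteins, averaged 24.7 ± 1.76 FPKM in TBI and 23.8 ± 1.36 FPKM in Sham (log2 0.01, interval -0.12 to 0.14). Its group mates Trim24, a nuclear receptor cofactor, and Trim33, which acts on SMAD signalling, had log2 changes of -0.10 and -0.07 and intervals of -0.23 to 0.02 and -0.21 to 0.06. None of 9 KAP1 partner genes, among them the histone methyltransferase Setdb1 and the heterochromatin genes Cbx1, Cbx3 and Cbx5, was called by edgeR. DESeq2 called 1 higher and limma on log2(FPKM + 1) called 1 higher. An unadjusted p under 0.05 was found for 2 of the 9, and for 2445 of all 16316 tested genes.

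The most abundant members came from several groups and were not called. Trim44, which lacks a RING domain, had the highest level, 56.6 ± 2.29 FPKM in TBI and 59.1 ± 3.13 FPKM in Sham (adjusted p = 0.41). Trim37, a ligase of peroxisomes and centrosomes, averaged 41.3 ± 2.37 FPKM in TBI and 45.9 ± 3.26 FPKM in Sham, and Trim32, next in order, did not differ from it beyond its spread. Trim37 had a log2 change of -0.19 with an interval of -0.34 to -0.05 that leaves out 0, but its adjusted p was 0.18. Trim35 followed at 30.6 ± 2.16 FPKM in TBI and 28.9 ± 0.972 FPKM in Sham, ahead of Trim28 and Trim3. Summed over all 68 members, the family was at 344.3 to 381.0 FPKM in TBI and 341.1 to 376.2 FPKM in Sham, so the called members, each below 3 FPKM, carried a small share of it.

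Of 16 other tested members edgeR called 0, while it called 3.57% of all tested genes higher and 0.472% lower. Among the 16, 2 had an unadjusted p under 0.05, 1, Trim47, was called by DESeq2, and the median log2 change was 0.02. Trim47 stood out among them, at 1.42, 1.55, 1.66, 1.45 and 1.65 FPKM in TBI, against 1.16, 0.861, 0.891, 1.45 and 1.06 FPKM in Sham (log2 0.47, adjusted p = 0.14). Trim47 shares 5.66% of its windows of 75 bases with its neighbour Trim65. Sham replicate 4 alone reached the TBI range of Trim47, and without it Trim47 was called (adjusted p = 0.027, with 0.027 to 0.27 over all alternatives). Over the whole family 31 tested members were not called, 27 of them with a log2 change smaller than 0.25 in size and 23 with an interval inside -0.5 to 0.5. At an unadjusted p under 0.05 there were 10 of the 36 tested members, against 2445 of all 16316 tested genes. Well expressed members without a called change included the innate signalling gene Trim8, at 13.3 ± 1.14 FPKM in TBI and 12.3 ± 0.982 FPKM in Sham. Trim23, which carries an ARF domain beside its RING, averaged 8.92 ± 0.815 FPKM in TBI and 9.15 ± 0.894 FPKM in Sham. Trim41, Trim11, Trim13, Trim62, Trim27, Trim59, Trim39, Trim68 and Trim45 were likewise not called, with log2 changes between -0.17 and 0.11. Trim17, a neuronal apoptosis ligase, shares 17.0% of its windows of 75 bases with an overlapping histone gene, so its level of 2.37 ± 0.343 FPKM in TBI and 2.14 ± 0.210 FPKM in Sham is uncertain.

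Muscle and red blood cell members were near the limit of detection. The muscle ring finger genes Trim54, Trim55 and Trim63 and the membrane repair gene Trim72 together summed to 0.212 to 1.07 FPKM in TBI and 0.317 to 1.21 FPKM in Sham, and none was tested. Trim10 and Trim58, both of erythroid cells, had 20 and 0 counts in TBI, against 4 and 4 counts in Sham. Red blood cell markers summed to 113.3 to 346.8 FPKM in TBI and 97.2 to 194.0 FPKM in Sham, with 0 of 4 tested called by edgeR or DESeq2 and 0 at an unadjusted p under 0.05, and skeletal muscle markers to 4.65 to 7.02 FPKM in TBI and 5.39 to 8.66 FPKM in Sham. Members with 0 counts in all libraries were Trim42, Trim43b, Trim50, Trim52, Trim60 and Trim61. Further low members included Trim16, at 0.450 ± 0.0876 FPKM in TBI and 0.300 ± 0.0668 FPKM in Sham, Trim7 and the stem cell gene Trim71, none of them called without a filter. Relatives of the family under other names, 7 of 10 tested, had 0 called by edgeR or DESeq2 and 0 at an unadjusted p under 0.05, with the interferon-linked Pml at 1.80 ± 0.354 FPKM in TBI and 1.49 ± 0.357 FPKM in Sham.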

How the data were processed

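Total RNA of 10 cortex libraries was sequenced as paired ends of 150 bases, per the labels' protocols. The submitters' processing notes name cutadapt 1.9, HISAT2, StringTie and mm10; the counting tool, strand setting and annotation release are not stated. The authors deposited estimated counts, whole numbers used as they are, and FPKM, scaled by transcript length and library fragments, per the file headers. Multiples of 4 made up 42.6% of all counts between 1 and 12, against 25% for evenly spread counts, so about 4 counts may stand for 1 fragment. FPKM with a count of 0 were read as 0.

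TBI was set against Sham by the two-sided quasi-likelihood F test of edgeR 4.0.16 in R 4.3.3, with TMM scaling and group as the sole term, over 16316 genes with at least 0.5 FPKM in at least 5 libraries, with Benjamini-Hochberg adjustment. Approximate SEs, and the 95% intervals built on them, are the log2 change divided by the root of F. A share of transcript windows found in other genes was computed from GENCODE M21. The code was tested on simulated data. Alternatives were no filter, 2 FPKM, size factors by median of ratios, DESeq2 1.42.0, limma 3.58.1 on log2(FPKM + 1) and log2(FPKM + 0.1), counts divided by 4, a replicate block and leaving out each library. Called members, role lists and the most abundant members are named, and the few genes named beyond these were chosen after their values were seen. Members and lists were chosen with earlier results of these data known. The replicate numbers were not taken to pair the mice.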

Additional observations from a re-analysis of the deposited data

Results flagged for a closer look

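Trim32 in Sham replicate 1 was at 31.3 FPKM, while the other 4 Sham libraries lay between 46.0 and 49.3 FPKM, a gap large enough to single out that library within its group. TBI replicates 2 and 5 were at 31.4 and 31.5 FPKM. Of the 72 groups of 5 values screened, this was the 1 that stood apart, and chance marks about 1 group in 20.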

How the results depend on the processing

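Of the 5 called members, Trim30a, Trim30d and Trim66 stayed past the threshold in the same direction in all 17 alternatives that tested them. Trim25 and Trim34a did so in 16 of 17, the exception for both being the replicate block (adjusted p = 0.069 and 0.11, log2 0.66 and 1.24). Deviations of same-numbered TBI and Sham libraries from their group means correlated at 0.0016, 0.17, 0.11, -0.14 and 0.073. Of the 10 libraries, 3 correlated best with their own number. These values cannot show whether same-numbered mice were handled together, so the replicate block remains a limit on the calls of Trim25 and Trim34a. With the replicate block 2 members were higher, and 373 of all genes were higher and 29 lower. A filter of 2 FPKM left 0 members higher and 0 lower, since none of the 5 passes it, with 337 genes higher and 48 lower. DESeq2 called 8 members higher, with 837 of all genes higher and 229 lower. Counts divided by 4 gave 5 members higher, Trim12c being the one added, with 599 of all genes higher and 63 lower. All genes lower numbered 43 without a filter, 42 with limma on log2(FPKM + 1) and 39 with a pseudocount of 0.1. Leaving out 1 library at a time gave 4 to 7 members higher, 1 lower in each case, 441 to 659 genes higher and 37 to 84 lower. The highs of 7 members and 659 genes both came without TBI replicate 4. The cause of these shifts was not tested. Members near 0 changed sign without passing. Trim11 was at 0.0083 with 2 FPKM, 0.0053 with counts divided by 4 and 0.030 and 0.027 with limma, Trim36 at 0.016 and 0.0077 and Trim62 at 0.012 and 0.011 with limma at pseudocounts of 0.1 and 1. With 1 library left out the log2 change ran from -0.0682 to 0.0389 for Trim11, -0.0117 to 0.0462 for Trim28, -0.0763 to 0.0055 for Trim3, -0.0782 to 0.0117 for Trim36, -0.0012 to 0.1622 for Trim39, -0.0895 to 0.1431 for Trim59, -0.0843 to 0.0338 for Trim62 and -0.0428 to 0.1182 for Trim67. Members under 0.5 FPKM rest on few fragments, and intervals cover these 10 mice only.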
